A study of Mus musculus with 37 samples.

Results

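The genes Nfkb1, Nfkb2, Rel, Nfkbiz and Map3k8 were taken by name from a table of transcript levels in 5 types of mouse myeloid cell. They account for 5 of the 6509 genes in the copy used here, and for 20 of its 16993 transcripts. Thioglycollate-elicited peritoneal macrophages, neutrophils of the bone marrow, dendritic cells of the spleen (sDCs) and cultured mast cells and eosinophils, both derived from bone marrow, were all from C57Bl6cJ mice, with no genetic change named in any group. Macrophages, neutrophils, sDCs and mast cells were left untreated, given IL-10 at 100 ng/ml for 4 h, given LPS at 100 ng/ml for 4 h, or given IL-10 for 4 h and then LPS for a further 4 h, and eosinophils were left untreated or given LPS. In the scheme of the study, cells given LPS were harvested 4 h after cells without it, so LPS and the longer culture cannot be told apart. Neutrophils came from pooled mice and were kept overnight with GM-CSF before the assay, macrophages were selected by adherence, and sDCs by magnetic enrichment. Each of the 18 groups has 1 column, the authors' mean of 2 libraries of RNA from independent mice, so no spread, no test and no count of reads per library can be given for any value below. A sample of naive CD4+ T cells was not analysed here.

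NF-κB proteins wait in the cytoplasm of resting cells, bound by inhibitors of the IκB type. Signalling from Toll-like receptor 4, the receptor for LPS, activates the IKK kinases, which mark these inhibitors for destruction and let the NF-κB dimers enter the nucleus. Nfkb1 encodes p105, which is both an IκB-like inhibitor and the precursor of the p50 subunit, and Nfkb2 encodes p100, the precursor of p52. Rel encodes c-Rel, a subunit with its own activation domain and a known part in cytokine genes of dendritic cells and lymphocytes. Nfkbiz encodes IκBζ, a nuclear protein that partners p50 at secondary response genes such as Il6, and Map3k8 encodes TPL2, the kinase that p105 holds inactive and that leads from the receptor to ERK. All 5 genes are known LPS response genes of macrophages.

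On the NCBIM37 (mm9) build the genes lie on different chromosomes. Nfkb1 (ENSMUSG00000028163) covers chr3:135247619-135354511 on the minus strand, Nfkb2 (ENSMUSG00000025225) chr19:46379227-46386580 on the plus strand, Rel (ENSMUSG00000020275) chr11:23641514-23670970 on the minus strand and Nfkbiz (ENSMUSG00000035356) chr16:55811488-55839012 on the minus strand. The table held 7 of the 9 annotated transcripts of Nfkb1, 3 of 3 of Nfkb2, 1 of 1 of Rel, 4 of 6 of Nfkbiz and 5 of 5 of Map3k8. The other subunit genes Rela and Relb and the classical IκB genes were not analysed here.

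RefSeq promoter windows were at hand for 2 of the 5 genes, Nfkb2 and Rel, and are shown because the columns separate the Nfkb2 transcripts that begin at its outer and its inner start. Each window is the 250 bases before a start, matched letter for letter to NCBIM37 and written 5′ to 3′ on the strand of the gene, with the letters of the κB consensus, searched on both strands, in capitals. The outer Nfkb2 window is chr19:46378977-46379226 and ends at the start of transcript ENSMUST00000073116. The inner window is chr19:46379935-46380184, in an intron of that transcript, and ends at the start of ENSMUST00000111881. The Rel window is chr11:23670970-23671219 on the minus strand.
Nfkb2, outer start: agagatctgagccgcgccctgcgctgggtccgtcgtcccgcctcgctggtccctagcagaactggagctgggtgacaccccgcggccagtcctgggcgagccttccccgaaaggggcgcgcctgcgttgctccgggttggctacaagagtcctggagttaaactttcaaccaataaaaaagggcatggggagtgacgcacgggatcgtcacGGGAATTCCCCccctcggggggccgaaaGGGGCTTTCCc
Nfkb2, inner start: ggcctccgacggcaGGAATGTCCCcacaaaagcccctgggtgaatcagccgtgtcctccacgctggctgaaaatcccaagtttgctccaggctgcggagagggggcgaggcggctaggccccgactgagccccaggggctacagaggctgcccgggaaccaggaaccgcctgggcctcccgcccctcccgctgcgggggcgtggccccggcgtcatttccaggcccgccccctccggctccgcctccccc
Rel: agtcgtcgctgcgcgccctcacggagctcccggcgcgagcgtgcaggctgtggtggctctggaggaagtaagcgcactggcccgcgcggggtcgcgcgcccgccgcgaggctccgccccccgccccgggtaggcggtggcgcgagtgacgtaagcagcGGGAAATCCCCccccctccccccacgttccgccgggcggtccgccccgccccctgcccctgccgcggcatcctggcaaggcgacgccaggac

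The outer Nfkb2 window held a pair of overlapping κB matches from -39 to -29 and a further match from -11 to -2, counted from the start. The inner Nfkb2 window held a match from -236 to -227, and a further match lay downstream of that start, from 11 to 20. A further Nfkb2 start in RefSeq lies at position 46380420, 68 bases from the start of transcript ENSMUST00000163266, and its window, chr19:46380170-46380419, is left out because 235 of its 250 bases are exonic. Its match, from -225 to -216, has the same letters as the one downstream of the inner start. The Rel window held overlapping matches from -92 to -82. A κB match was present in 8.46% of the 32851 promoter windows of the whole RefSeq table, each 300 bases long, and in 10.9% of those of genes in the expression table. The STAT-type motif TTCNNNGAA, searched on both strands, occurred once, in the outer Nfkb2 window from -148 to -140, against 8.3% of all windows, and an IRF-type motif, GAAA repeated after any pair of bases, found in 3.44% of all windows, had no match in the windows of either gene. These matches describe letters only, and no binding was measured here.

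In untreated cells, sDCs had the highest value for 4 of the 5 genes, by a wide step for Rel and Nfkb2. Values are the authors' GC-normalized tag counts, summed over the transcripts of a gene, and they compare groups for 1 gene at a time because longer genes gather more tags. Rel had a gene sum of 5020.5 in untreated sDCs, 731.5 in mast cells, 559 in neutrophils, 527 in macrophages and 346 in eosinophils. The sDC value was thus 6.86 times the next, and the other 4 lay between 346 and 731.5. Nfkb2 was also highest in sDCs, at 11598.5, but with another order below, at 1824 in neutrophils, 1696 in macrophages, 1316.5 in mast cells and 875 in eosinophils. Its sDC value was 6.36 times that of neutrophils, which in turn was 1.07 times that of macrophages.

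Nfkbiz and Map3k8 were also highest in untreated sDCs, by smaller steps. Nfkbiz measured 1094.5 in sDCs, 758.5 in neutrophils, 632.5 in mast cells, 290.5 in macrophages and 150 in eosinophils. Map3k8 measured 923.5 in sDCs, 493.5 in neutrophils, 346.5 in macrophages, 55 in mast cells and 1.5 in eosinophils. Map3k8 was therefore the gene with the widest range, and near 0 in eosinophils, where its main transcript was listed at 0.

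Nfkb1 had another order. Its sum was 7396 in mast cells, 6840.5 in eosinophils, 6302.5 in sDCs, 6289 in neutrophils and 2374.5 in macrophages. The upper 4 cell types lay within 1.18-fold of each other and macrophages were lowest. This order came from transcripts that begin late in the gene, described below: without them the highest value was 3770 in sDCs, followed by 2794 in mast cells, 2009.5 in neutrophils, 1630.5 in macrophages and 1395.5 in eosinophils. No spread within a group was available, so neighbours in any of these orders cannot be told apart by error.

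The label of the sDCs was less well covered by markers than those of the other cells. Of 10 dendritic cell markers the table held 3, and their summed level was 4508.5 in untreated sDCs but 13926 in untreated macrophages, with Itgax (CD11c) at 4075.5 and 13861. Among untreated groups, Xcr1 and Clec9a were highest in sDCs, at 189.5 and 243.5. The sDC columns also held Kit at 8800, with the mast cell tryptases Tpsb2 and Tpsab1 listed at 0, Cd4, the only T cell marker of 7 in the table, at 2306.5, and 4 of 7 B cell markers at a summed 1884, against 5215 in untreated macrophages and 5361.5 in untreated neutrophils. Cd4 is also carried by a subset of splenic dendritic cells, and flow cytometry in the study found most purified cells positive for CD11c. The part of other cells in the sDC levels of Rel and Nfkb2 was not tested. In bulk RNA, fewer cells of a type and less RNA per cell cannot be told apart. Each of the macrophage, neutrophil, mast cell and eosinophil marker lists was highest in summed level in its own untreated cells (246796, 273011, 315765 and 308542), although 5, 5, 3 and 3 of 10 marker names were held. In these lists Emr1 and Adgre1 name the same gene, and so do Siglec5 and Siglecf. Eosinophil markers summed to 27727.5 in untreated neutrophils, with Epx at 19128.5, and erythroid markers, 3 of 4 held, to 6267.5. Over the 4 neutrophil groups the eosinophil markers summed to between 27197.5 and 30791 and the B cell markers to between 3588.5 and 5473, and the part of these cells in the neutrophil values was not tested. With LPS the neutrophil markers themselves summed to 37278.5 in neutrophils, against 273011 without, and Cxcr2 went from 52728 to 3210 and stood at 19833 with IL-10 and LPS. Of the macrophage markers, Emr1 was 4346 in untreated neutrophils, 14667.5 with LPS and 5157.5 with both, and Marco 0, 241 and 14.5. Itgam went the other way, at 136889, 26225 and 36909.5, and so did Mrc1, at 454.5, 124.5 and 613. Cd68 was 2788, 3140 and 4387.5. The part of these marker shifts in the neutrophil values of the 5 genes was not tested.

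Divided by transcript length, the genes could be set against each other. Per kilobase of transcript in untreated macrophages, Nfkb1 stood at 786, Nfkb2 at 551.8, Rel at 188.3, Map3k8 at 155.9 and Nfkbiz at 82.6. Nfkbiz was thus the lowest of the 5 before LPS, and after LPS it measured 3150 per kilobase, above Rel at 656.3 and Map3k8 at 560. In untreated sDCs the level per kilobase of Nfkb2, 3757, was above that of Nfkb1, 2174, whereas in untreated eosinophils Nfkb1, at 2871, was above Nfkb2, at 284.9.

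**Figure D1:**
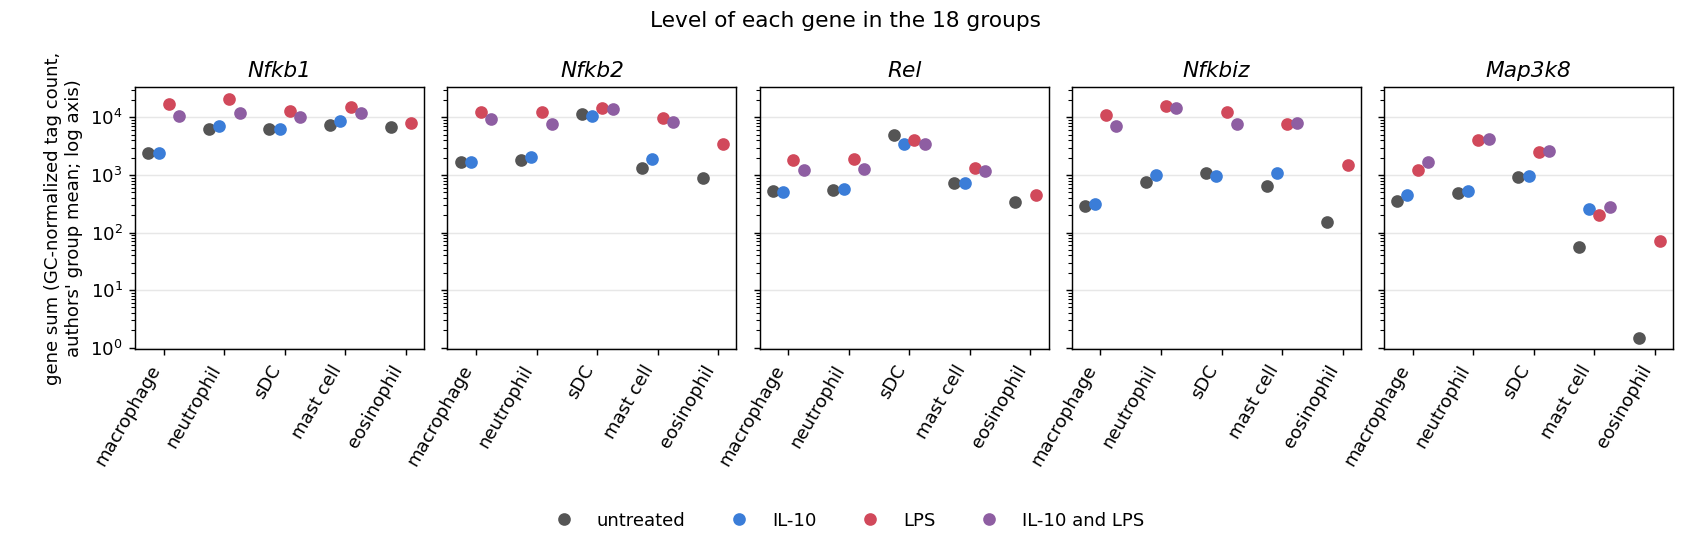
Gene sum of Nfkb1, Nfkb2, Rel, Nfkbiz and Map3k8 (GC-normalized tag count, the authors' group mean, logarithmic axis) by cell type, with 1 point per group coloured by treatment. Rel lies highest in sDCs under each treatment, Nfkbiz shows a wide gap between the columns with and without LPS in all 5 cell types, and Map3k8 reaches down to 1.5 in untreated eosinophils.

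The comparison of LPS with untreated cells asks which of these genes respond to the endotoxin in each cell type. A gene was said to rise or fall when the log2 fold change, on log2(gene sum + 1), passed 2-fold. In macrophages 5 of 5 genes rose, where 12.7% of all 6064 genes kept rose. In neutrophils 5 of 5 rose, against 8.71% of 5949 genes. In sDCs 3 of 5 rose, against 9.04% of 6050, in mast cells 4 of 5, against 4.76% of 5734, and in eosinophils 3 of 5, against 2.16% of 5559. In eosinophils 1 of these 3, Map3k8 (1.5 to 72.5), reached the minimum of 10 only with LPS. Its rise was therefore set by the filter, and it also enters the eosinophil median below. None of the 5 genes fell with LPS in any cell type, where 14.8%, 7.88%, 11.5%, 5.46% and 0.702% of all genes fell in macrophages, neutrophils, sDCs, mast cells and eosinophils, and 1 of the 25 log2 fold changes, that of Rel in sDCs, was below 0. The median log2 fold change of the 5 genes was highest in macrophages, at 2.87, and neutrophils, at 2.80, and was 1.96 in eosinophils, 1.87 in mast cells and 1.03 in sDCs, where the median of all genes lay between -0.15 and -0.02.

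Nfkb1 rose in 4 cell types. Its sum went from 2374.5 to 17321 in macrophages and from 6289 to 20692 in neutrophils, log2 fold changes of 2.87 and 1.72. It went from 6302.5 to 12892.5 in sDCs and from 7396 to 14904 in mast cells, just past 2-fold with log2 fold changes of 1.03 and 1.01. In eosinophils it was 6840.5 without and 8022 with LPS, a log2 fold change of 0.23. The calls in sDCs and mast cells were lost under small changes of scale, with 0.9972 in mast cells when columns were scaled to the same total and 0.9966 in sDCs when they were scaled to the same upper quartile.

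Nfkb2 rose in all cells but sDCs. It went from 1696 to 12397 in macrophages, from 1824 to 12684 in neutrophils and from 1316.5 to 9651.5 in mast cells. These rises were alike, with log2 fold changes of 2.87, 2.80 and 2.87, and that of eosinophils, from 875 to 3398.5, was 1.96. In sDCs, where the untreated level was already 11598.5, the sum with LPS was 14609, a log2 fold change of 0.33. With LPS the sums of sDCs, neutrophils and macrophages lay within 1.18-fold of each other.

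Rel rose in macrophages, from 527 to 1837, and in neutrophils, from 559 to 1926. Both were close to 3.5-fold, with log2 fold changes of 1.80 and 1.78. The sum was 731.5 without and 1347 with LPS in mast cells, and 346 and 442 in eosinophils, log2 fold changes of 0.88 and 0.35 that did not pass 2-fold. In sDCs it was 5020.5 without and 4077.5 with LPS, a log2 fold change of -0.30. The sDC level with LPS was still 2.12 times that of neutrophils with LPS. The markers of the sDC columns moved in the same comparison, with Itgax falling from 4075.5 to 818.5 and Cd4 from 2306.5 to 1092, and the part of this in the values of Rel and Nfkb2 was not tested.

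Nfkbiz, which encodes the nuclear cofactor IκBζ, rose in all 5 cell types, by up to 38.1-fold in macrophages. Its sum went from 290.5 to 11105 in macrophages, from 758.5 to 15670.5 in neutrophils and from 1094.5 to 12240 in sDCs. It went from 632.5 to 7644.5 in mast cells and from 150 to 1508.5 in eosinophils. The log2 fold changes were 5.25, 4.37, 3.48, 3.59 and 3.32, each at or above those of at least 98.7% of the genes kept in that cell type. Eosinophils with LPS held the lowest level, 10.4 times below neutrophils with LPS, although their fold change was close to that of sDCs.

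Map3k8, the gene of the kinase TPL2, also rose in all 5 cell types. It went from 346.5 to 1199 in macrophages, from 493.5 to 4025 in neutrophils and from 923.5 to 2495 in sDCs, log2 fold changes of 1.79, 3.03 and 1.43. It went from 55 to 203.5 in mast cells and from 1.5 to 72.5 in eosinophils, log2 fold changes of 1.87 and 4.88. The eosinophil value was the highest log2 fold change of the 5559 genes kept there, but it starts near 0 and was 2.84 with a pseudocount of 10. Map3k8 was kept in eosinophils only through its LPS column, so a rise there was set by the filter. In level, mast cells and eosinophils with LPS stayed 19.8 and 55.5 times below neutrophils.

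**Figure D2:**
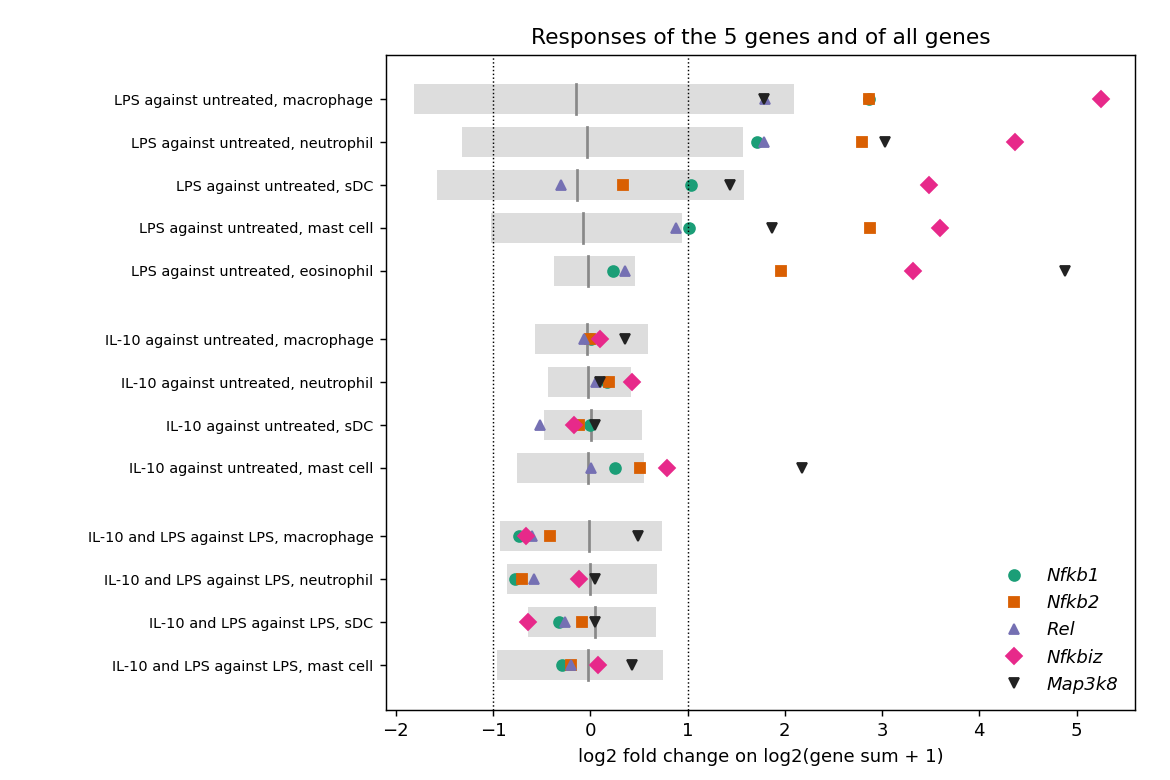
Log2 fold change of the 5 genes (symbols) in each comparison and cell type, beside the range from the 5th to the 95th percentile of all genes kept (grey bars) and their median (grey line), with dotted lines at 2-fold in either direction. The symbols lie to the right of the grey bar for Nfkbiz in each LPS comparison, and those of the IL-10 comparisons lie between the dotted lines except Map3k8 in mast cells at 2.18.

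IL-10 alone left most of these sums close to the untreated level. Of the 5 genes, 0 rose and 0 fell in macrophages, neutrophils and sDCs, where 2.34%, 1.26% and 1.6% of all genes rose and 2.14%, 0.908% and 0.826% fell. In mast cells 1 of 5 rose, Map3k8, against 2.25% of all genes, and 0 fell, against 2.79%. Map3k8 went from 55 to 252 in mast cells, a log2 fold change of 2.18 that 0.331% of genes reached, so that the level with IL-10 alone, 252, was above that with LPS alone, 203.5. Most of this lay in the full-length coding transcript ENSMUST00000025078, at 48 without and 148.5 with IL-10, and in a transcript annotated for nonsense-mediated decay, ENSMUST00000173930, at 2.5 and 75. In the other cells the Map3k8 log2 fold changes were 0.36, 0.10 and 0.05.

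In mast cells Nfkbiz and Nfkb2 also stood higher with IL-10, though by less than 2-fold. Nfkbiz was 632.5 without and 1089.5 with IL-10, and Nfkb2 1316.5 and 1872.5, log2 fold changes of 0.78 and 0.51. Only 3.07% and 6.0% of genes had values as high. Rel in sDCs was the lowest value among the 20 of this comparison, at 5020.5 without and 3513 with IL-10, a log2 fold change of -0.52 that 4.3% of genes reached. Itgax in the same pair of columns was 4075.5 and 2753, and Cd4 2306.5 and 1444, and their part in the Rel value was not tested. For Nfkb1 the log2 fold changes with IL-10 alone ran from 0 in sDCs to 0.25 in mast cells.

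The comparison of IL-10 and LPS with LPS alone asks what IL-10, given beforehand, does to the response. Of the 5 genes, 0 passed 2-fold in any of the 4 cell types, where 4.58%, 3.87%, 2.08% and 4.66% of all genes fell in macrophages, neutrophils, sDCs and mast cells and 3.12%, 3.06%, 2.61% and 2.88% rose. The subunit genes Nfkb1, Nfkb2 and Rel were below the LPS level in each of the 4 cell types, in 12 of 12 values, and Map3k8 was above it in 4 of 4. With the highest transcript in place of the gene sum, Nfkb1 in mast cells (log2 difference 0.06) and Map3k8 in neutrophils (-0.03) lay on the other side. The median of all genes lay between -0.03 and 0.04, so either sign was common. Between 5.8% and 30.8% of genes were at or below the subunit values. For Map3k8, 9.19%, 41.4%, 50.1% and 11.6% of genes were at or above its value in macrophages, neutrophils, sDCs and mast cells. The comparisons with untreated and with LPS share the LPS columns and are not independent.

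The subunit genes kept between 40.1% and 85.3% of their rise where LPS gave a rise. Nfkb1 went from 17321 with LPS to 10407 with IL-10 and LPS in macrophages and from 20692 to 12057.5 in neutrophils, log2 differences of -0.73 and -0.78. The rise over untreated cells was then 53.7% and 40.1% of that with LPS alone, and in sDCs and mast cells 60.5% and 63.6%. Nfkb2 was 12397 with LPS and 9289.5 with both in macrophages, and 12684 and 7785.5 in neutrophils, which left 71.0% and 54.9% of the rise. In sDCs and mast cells 71.9% and 85.3% of the Nfkb2 rise was left, with log2 differences of -0.09 and -0.20. Rel was 1837 and 1211 in macrophages, 1926 and 1292 in neutrophils and 1347 and 1173 in mast cells, which left 52.2%, 53.6% and 71.7% of the rise. In sDCs, where LPS gave no rise, Rel was 4077.5 with LPS and 3404 with both.

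Nfkbiz and Map3k8 departed from this order. Nfkbiz was 11105 with LPS and 7020 with both in macrophages and 12240 and 7838 in sDCs, which left 62.2% and 60.5% of the rise. In neutrophils it was 15670.5 and 14448 and in mast cells 7644.5 and 8090, which left 91.8% and 106% of the rise. Map3k8 was 1199 with LPS and 1679.5 with both in macrophages, and 203.5 and 274 in mast cells, so that the rise with both was 156% and 148% of that with LPS. In neutrophils and sDCs it was 104% and 105%. In mast cells Map3k8 was already 252 with IL-10 alone, against 55 untreated, and in macrophages 444.5 against 346.5. The part of IL-10 itself in the rise with both was not tested. With 1 mean per group, none of these differences between cell types could be tested.

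**Figure D3:**
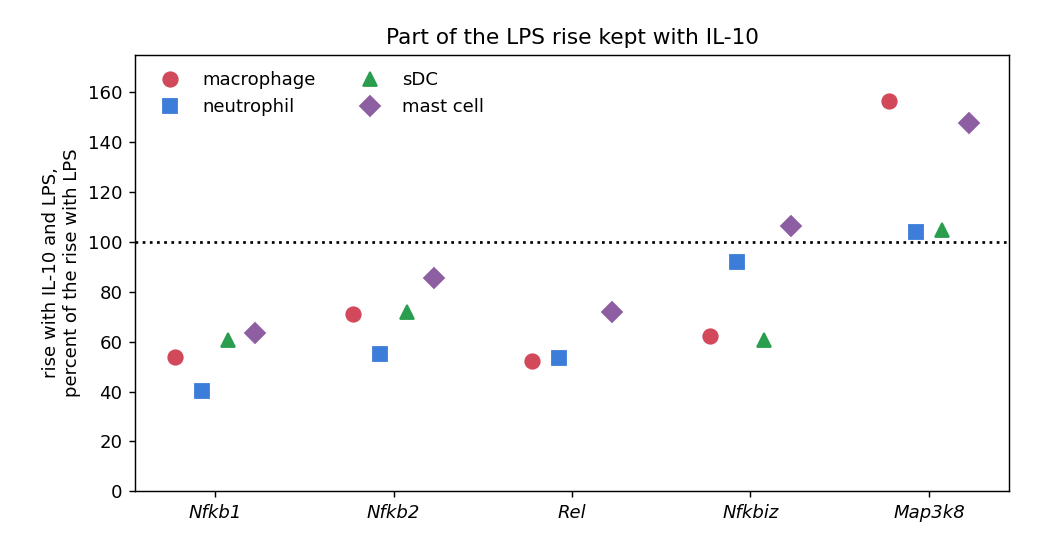
Rise over the untreated gene sum with IL-10 and LPS, as a percent of the rise with LPS alone, for each gene (horizontal axis) and cell type (symbols), with a dotted line at 100 percent. Points of Nfkb1, Nfkb2 and Rel lie between 40.1 and 85.3 percent, those of Map3k8 between 104 and 156 percent, and Rel in sDCs has no point because its level did not rise with LPS. Changes with IL-10 alone are not subtracted, and Map3k8 in mast cells was 252 with IL-10 alone and 203.5 with LPS alone.

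Transcripts of a gene did not all follow its sum. Of the member transcripts kept, 18 of 19 rose with LPS in neutrophils and 17 of 19 in macrophages, where 14.7% and 19.7% of all transcripts kept rose. In sDCs 10 of 19 rose, in mast cells 12 of 17 and in eosinophils 7 of 14, against 15.1%, 9.54% and 5.63% of all transcripts. A transcript, like a gene, was kept at 10 or more in any group of its cell type. The rising eosinophil transcripts of Map3k8 (0 to 50 and 0.5 to 16) reached this only with LPS. So did ENSMUST00000114457 (3 to 53) and ENSMUST00000139373 (0 to 10) of Nfkbiz, so these rises were set by the filter. With IL-10 before LPS 5 of 19 fell in macrophages and 4 of 19 in neutrophils, against 13.1% and 9.79%, and in sDCs and mast cells 2 of 19 and 1 of 17, against 7.64% and 8.41%. In the same comparison 2 of 19 rose in both macrophages and neutrophils, against 13.3% and 10.2%, and 1 of 19 in sDCs and 1 of 17 in mast cells, against 7.7% and 7.23%. The macrophage rises were ENSMUST00000163266 (0 to 20) and ENSMUST00000173930 (0 to 47.5). Both reached the minimum of 10 only in the column with IL-10 and LPS, so their rise was set by the filter. In neutrophils ENSMUST00000105472 (8.5 to 222) also reached the minimum only there. With IL-10 alone 4 of 19 rose and 3 fell in macrophages, against 9.89% and 9.35%, and in neutrophils 2 rose and 1 fell, against 6.66% and 5.38%. Most of these calls lay at low values. The macrophage falls were 48 to 0, 12.5 to 0 and 6.5 to 1, and the rises 92 to 298, 179 to 359.5, 0 to 22 and 15 to 67.5. In neutrophils the rises were 0 to 7 and 16 to 61, and the fall 11 to 0. Such small counts are not read as a trait of the members. In sDCs 1 rose and 1 fell, against 7.5% and 6.58%, and in mast cells 4 of 17 rose and 1 fell, against 6.43% and 6.71%. RSEM divides reads that fit several transcripts among them, so levels of transcripts that share most of their exons are estimates. Rel has 1 transcript and is free of this division.

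The transcripts of Nfkbiz differ in where they begin. ENSMUST00000114458 begins 16761 bases inside the gene and has a coding length of 2184 bases, and ENSMUST00000114457 begins at the start of the gene and has a coding length of 1887 bases. The inner transcript held 98.5% of the untreated Nfkbiz sum in neutrophils, 98.0% in eosinophils, 95.8% in mast cells, 93.5% in macrophages and 92.1% in sDCs. In macrophages with LPS its share was 67.4%, since the outer transcript, listed at 0 in untreated macrophages, stood at 3308.5 beside 7481 for the inner. The outer transcript with LPS was 1421 in sDCs, 731.5 in neutrophils, 580.5 in mast cells and 53 in eosinophils, against 76, 11, 13 and 3 without.

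With IL-10 before LPS the Nfkbiz transcripts moved by different amounts in macrophages and neutrophils. In macrophages the outer transcript was 3308.5 with LPS and 1023 with both, whereas the inner transcript was 7481 and 5833. In neutrophils the outer was 731.5 and 168.5 and the inner 14802 and 14173.5. As a sum, the 3 transcripts that begin within 45 bases of the start of the gene fell to 32.8% of their LPS level in macrophages and to 31.6% in neutrophils, while the inner transcript stood at 78.0% and 95.8%. In sDCs these percents were 55.5 and 65.4, and in mast cells 69.9 and 109, with no class past 2-fold. The ratio of the inner to the outer transcript was 2.26 in macrophages with LPS and 5.70 with both, 20.2 and 84.1 in neutrophils, 12.1 and 19.9 in mast cells, and 7.45 and 8.33 in sDCs. The Nfkbiz sum in neutrophils, at 92.2% of its LPS level, thus combined a small outer part that fell with a large inner part at 95.8%.

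**Figure D4:**
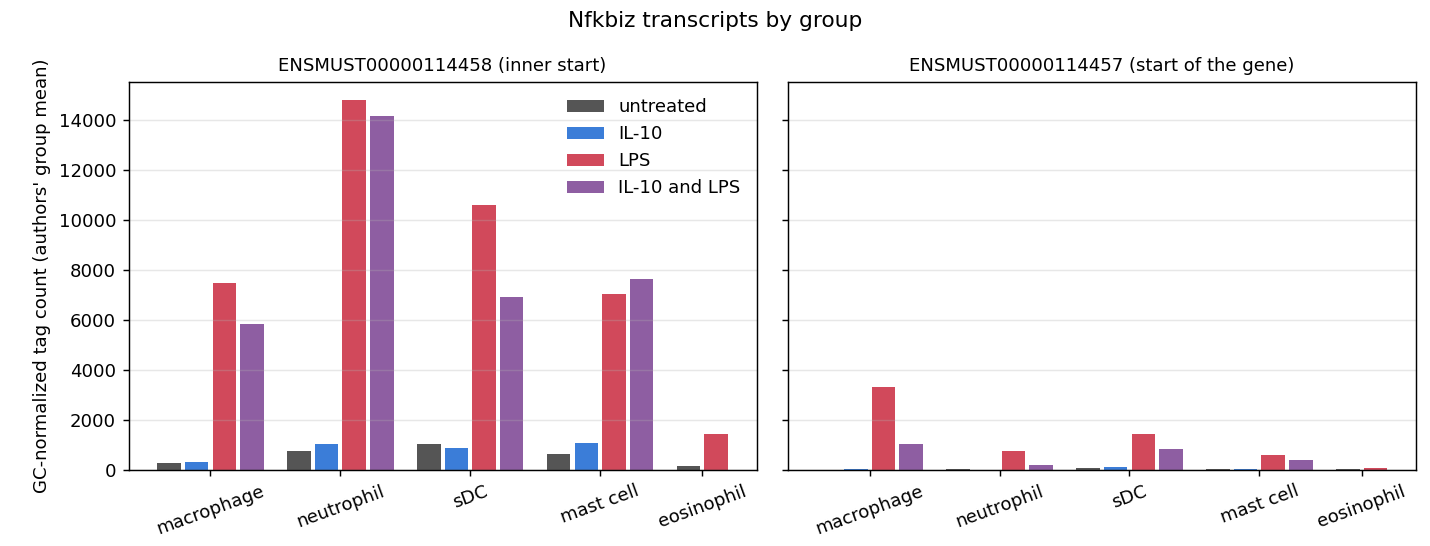
GC-normalized tag count (the authors' group mean) of the Nfkbiz transcripts ENSMUST00000114458, left, and ENSMUST00000114457, right, in the 18 groups, coloured by treatment. The bars of the outer transcript are highest in macrophages with LPS, at 3308.5, and lower with IL-10 and LPS, at 1023, while those of the inner transcript reach 14802 in neutrophils with LPS and 14173.5 with both.

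Nfkb1 transcripts fell into 3 classes by their start. ENSMUST00000029812 and a retained-intron transcript begin at the start of the gene, a pair of coding transcripts begins 23739 and 23748 bases inside it, and 3 transcripts begin at least 83064 bases inside it and cover its 3′ part. The late class held 31.3% of the untreated Nfkb1 sum in macrophages and 40.2% in sDCs, but 68.0% in neutrophils, 62.2% in mast cells and 79.6% in eosinophils. Its largest transcript, ENSMUST00000129428, is annotated as a processed transcript with no coding part, and measured 3475 in mast cells, 3121 in neutrophils, 2737 in eosinophils, 1306 in sDCs and 517 in macrophages, all untreated.

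The class at the start of the gene gave an Nfkb1 response that the sum partly hid. It went with LPS from 1022.5 to 7247.5 in macrophages, from 1281 to 6385.5 in neutrophils and from 2162 to 4443 in sDCs. It went from 1409.5 to 4773 in mast cells and from 1101 to 1861 in eosinophils. The log2 fold changes were 2.82, 2.32, 1.04, 1.76 and 0.76. Those of the late class were 2.83, 1.40, 1.09, 0.62 and 0.11, so that in neutrophils, mast cells and eosinophils the late class moved less than the class at the start of the gene. For the middle class they were 2.97, 2.04, 0.92, 1.13 and 0.04. In eosinophils the middle class thus moved less than the late class, from 294.5 to 302. With IL-10 before LPS the class at the start was at 56.5% of its LPS level in macrophages, 63.8% in mast cells, 64.7% in neutrophils and 72.5% in sDCs. In mast cells the late class was at 99.4% and the middle class at 68.2%, and the sum of all classes at 81.7%.

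**Figure D5:**
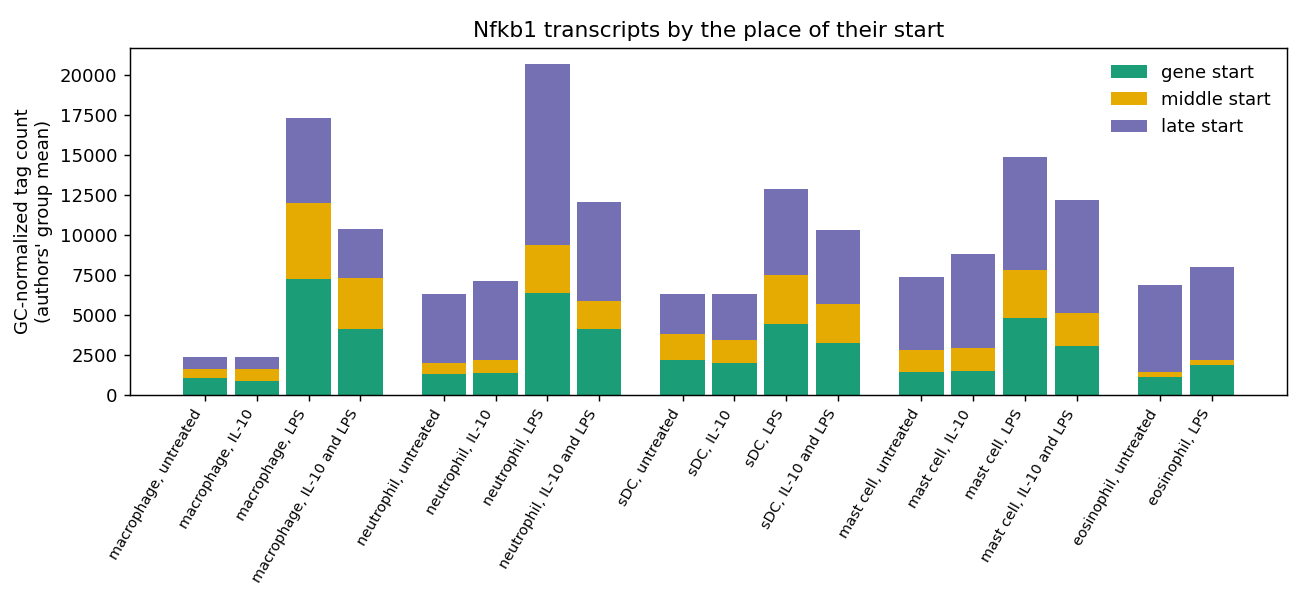
Nfkb1 gene sum (GC-normalized tag count, the authors' group mean) in the 18 groups, divided by where the transcripts begin: at the start of the gene, in its middle or late. The late part is 79.6% of the bar in untreated eosinophils and 31.3% in untreated macrophages, and all 3 parts stand higher in macrophages with LPS.

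Nfkb2 was almost wholly in a pair of transcripts with the same coding length of 2697 bases, whose start windows are printed above. The inner transcript, ENSMUST00000111881, made up 13.6% of the sum in untreated macrophages and 29.4% with LPS, and 17.4% and 31.5% in neutrophils. It went from 231 to 3643.5 in macrophages and from 318 to 3995.5 in neutrophils, while the outer transcript, ENSMUST00000073116, went from 1465 to 8753.5 and from 1506 to 8687.5. The inner share moved less in sDCs, 24.0% and 26.7%, and the other way in mast cells, 23.3% and 17.6%. With IL-10 and LPS the inner share was 26.6% in macrophages and 26.7% in neutrophils. ENSMUST00000163266 was at most 50.5 in any group.

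Map3k8 was mostly in its full-length coding transcript, ENSMUST00000025078. That transcript held 93.7% of the sum in untreated macrophages, 87.3% in mast cells, 83.2% in neutrophils and 78.7% in sDCs. With LPS the shares were 92.5%, 83.0%, 88.5% and 90.3%, and 69.0% in eosinophils, so its rise in level followed that of the gene. The transcript ENSMUST00000105472 was 8.5 in neutrophils with LPS and 222 with both. In macrophages ENSMUST00000173708 went from 15 to 70.5 with LPS and ENSMUST00000172805 from 7 to 19.5.

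Other genes of the pathway were read from lists, of which the table held only a part. Of 10 genes of the IKK complex and its upstream kinases 6 were held, and Ikbke, an IKK-related kinase, rose with LPS in macrophages, neutrophils, sDCs and eosinophils, in neutrophils from 1284.5 to 20308.5. In that list 2 of 6 rose in macrophages, 1 each in neutrophils, sDCs and eosinophils and 0 in mast cells. Of all genes 12.7%, 8.71%, 9.04%, 4.76% and 2.16% rose in macrophages, neutrophils, sDCs, mast cells and eosinophils. Map3k14, which encodes NIK, the kinase that triggers p100 processing, was the only gene of the list to fall. It went from 12263 to 3478 in sDCs, where 11.5% of all genes fell. Its untreated sDC level was above those of the other 4 cell types, which ran from 351 to 805, as it was for Nfkb2 and Rel. No gene of this list passed 2-fold in either IL-10 comparison, where at most 3.12% of all genes rose and at most 4.66% fell.

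Of 21 adaptors and ubiquitin ligases 11 were held. With LPS 5 rose in macrophages, 2 each in neutrophils and mast cells, 1 in sDCs and 0 in eosinophils. Of all genes 12.7% rose in macrophages, 8.71% and 4.76% in neutrophils and mast cells, 9.04% in sDCs and 2.16% in eosinophils. With IL-10 before LPS only Peli1 passed 2-fold, falling from 8250 to 3804 in macrophages, where 4.58% of all genes fell. Of 13 names of inhibitors, where Otulin and Fam105b name the same gene, 8 were held. With LPS 4, 4, 1, 2 and 1 of them rose in macrophages, neutrophils, sDCs, mast cells and eosinophils. The shares of all genes that rose were, in the same order, 12.7%, 8.71%, 9.04%, 4.76% and 2.16%. Tnfaip3, which encodes the ubiquitin-editing inhibitor A20, was among the rising inhibitors in all 5, for example from 2808 to 18410 in macrophages. In neutrophils Tnfaip3 was 19019.5 with LPS and 29819.5 with both, and in mast cells 21017.5 and 12517.5, log2 differences of 0.65 and -0.75, while those in macrophages and sDCs were -0.08 and -0.05. None of the 8 inhibitors passed 2-fold with IL-10 in any cell type.

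On the side of Map3k8, 4 of 11 genes from TPL2 to ERK were held. In neutrophils Dusp5 rose and Mapk3 and Dusp6 fell with LPS, where 8.71% of all genes rose and 7.88% fell. None of the 4 passed 2-fold with LPS in the other cells. Of 6 names listed for the LPS receptor, where Rp105 and Cd180 name the same gene, 2 were held. With LPS in sDCs Ly96 rose and Lbp fell. There 9.04% of all genes rose and 11.5% fell. Of 6 genes of the IL-10 arm 3 were held, Il10ra, Il10rb and Tyk2. All 3 rose with LPS in neutrophils, against 8.71% of all genes, and in no other cell type. With IL-10 before LPS, Dusp5 fell in mast cells, where 4.66% of all genes fell, and Lbp rose in macrophages, where 3.12% rose.

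Of 39 known target genes of NF-κB and IκBζ 20 were held. With LPS 18 of 20 rose in both macrophages and neutrophils, 16 of 20 in sDCs, 18 of 18 kept in mast cells and 6 of 14 kept in eosinophils. Of all genes 12.7%, 8.71%, 9.04%, 4.76% and 2.16% rose in these cells. With IL-10 before LPS, 11 of 20 fell in both macrophages and neutrophils, 5 of 20 in sDCs and 6 of 18 in mast cells, while the number that rose was 2, 3, 4 and 1. Of all genes 4.58%, 3.87%, 2.08% and 4.66% fell and 3.12%, 3.06%, 2.61% and 2.88% rose. The median log2 difference of the targets in that comparison was -1.06, -1.17, -0.19 and -0.32, and that of the 5 genes was -0.60, -0.58, -0.26 and -0.20. That of all genes lay between -0.03 and 0.04. With IL-10 alone between 1 and 3 of the targets rose and between 1 and 3 fell in each cell type. Of all genes between 1.26% and 2.34% rose and between 0.826% and 2.79% fell.

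The genes with patterns most like those of the members were found by Pearson's r over the 18 groups, on log2(gene sum + 1), among 6247 genes. The groups share cell types and a common scaling, and r is given as a description. For Nfkb2 they were Psd (0.974), Icam1 (0.956) and Slc2a6 (0.901). Psd lies on the opposite strand beyond the 3′ end of Nfkb2, sharing 4 exonic bases with it, and its sum was between 2.43% and 6.95% of that of Nfkb2. Whether the counting used strand is not known from the methods or the labels, so tags past the end of Nfkb2 and tags of Psd cannot be told apart.

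For Nfkbiz the nearest genes were Ptpn11 (0.898), Tnip1 (0.898) and Tnfaip3 (0.897), of which Tnip1 and Tnfaip3 are NF-κB inhibitors. For Nfkb1 they were Caps2 (0.900), Camkk2 (0.892) and Puf60 (0.859), for Rel Mllt6 (0.956), Cx3cl1 (0.949) and Trim34a (0.943), and for Map3k8 Atf5 (0.891), Trim30d (0.889) and Dusp16 (0.873). Between members, r was highest for Nfkb2 and Rel, 0.878, and lowest for Nfkb1 and Map3k8, 0.308. Nfkbiz ran with Nfkb1 and Nfkb2 at 0.843 and 0.844, and with Rel at 0.597.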

How the data were processed

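Per the labels and the study's methods, the authors aligned RNA-seq reads to Ensembl transcripts (mm9, which is NCBIM37) with RSEM 1.2.1 and Bowtie 0.12.9, normalized tag counts for GC content with EDASeq and averaged 2 replicates. The deposited values are therefore treated as a score: they move in steps of 0.5, and each of the 18 columns has the same highest value, 185338. Depth per library is not in these columns, so their precision is unknown, and DESeq, the authors' test, could not be repeated. The copy of the table ends in a broken line. Of 17015 complete lines, 22 (0.129%) named no gene and were left out, and 16993 transcripts of 6509 genes remained.

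Transcript values were summed per gene with Python 3.11.15, numpy 2.4.6 and pandas 2.3.3. Within each cell type, genes with a sum of at least 10 in 1 or more groups were kept, and fold changes were taken on log2(sum + 1) and called at 2-fold. The script was tested on simulated data. Positions and lengths come from GENCODE vM1 on the same build, and promoter windows from RefSeq. Members, pathway lists and markers were chosen with earlier results of these data known. The rule for named genes took every member transcript: they are given by counts, and not all by value in each group. The 3 genes most like each member (by Pearson's r, with a sum of at least 50 in a group) are named. Alternatives changed the pseudocount, the minimum, the scaling, the fold for a call and the value taken per gene.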

Additional observations from a re-analysis of the deposited data

How the results depend on the processing

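Pseudocounts of 0.5 and 10, no minimum, a minimum of 50, the highest transcript in place of the gene sum and columns scaled to the same total or upper quartile left each count of members that rose or fell within 1.5 times its value, and no called fold change turned its direction. With calls at 1.5-fold, 2 members rose with IL-10 alone in mast cells, in place of 1, and with IL-10 before LPS 3 fell in macrophages, 2 in neutrophils and 1 in sDCs, in place of 0, where 4.57% of all genes and then 9.98%, 8.76% and 5.83% passed that fold. The log2 fold change of Nfkb1 with LPS lost its call in sDCs with the highest transcript (0.74) or the upper quartile (0.9966), and in mast cells with the highest transcript (0.38) or the same total (0.9972). That of Map3k8 in eosinophils was 2.84 with a pseudocount of 10 and 5.67 with the highest transcript. With the highest transcript, the untreated level of Nfkb1 was 3475 in mast cells, 3121 in neutrophils, 2737 in eosinophils, 1306 in sDCs and 517 in macrophages, and that of Map3k8 in eosinophils was 0. Without the late-start transcripts of Nfkb1, an alternative chosen after seeing the data, its untreated level was 3770 in sDCs, 2794 in mast cells, 2009.5 in neutrophils and 1395.5 in eosinophils, and its log2 fold change with LPS in sDCs was 0.9904. Scaling to the upper quartile moved the median log2 fold change of all genes with LPS in macrophages from -0.15 to -0.27, and 5 of 5 members still rose there. Levels without some transcripts are lower because fewer transcripts are added. The remaining values moved by less than 1.5-fold.

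No paired analysis was possible because each column is the mean of a group. Leaving out a replicate was not run for the same reason. Without values per library, no difference given here can be set against the spread between replicates, and the depth of each library is unknown from these values.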
